A study of Homo sapiens with 6 samples.

Results

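The 10 genes described here are ATF4, DDIT3, CEBPB, ASNS, PSAT1, PHGDH, SHMT2, MTHFD2, STC2 and FGF19, taken by name from 56638 listed gene symbols. All 10 were present in every count table and all 10 had enough reads to be tested, among 14685 tested genes. RNA was sequenced from HT29, an established human colorectal cancer line grown at passages 16 to 19, in 3 libraries that received a nonspecific control siRNA (labelled wild type) and 3 that received siRNA against RNF6 (labelled knockdown). RNF6 encodes an E3 ubiquitin ligase with a RING domain, and the series asks how it acts in colorectal cancer. No other agent is named for either group. The labels do not say that replicates were separate cultures, how many different siRNAs were used or when cells were harvested, so every p-value rests on differences among these libraries that could be technical.

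ATF4 is a basic leucine zipper (bZIP) transcription factor at the centre of the integrated stress response. Kinases that sense amino acid shortage, unfolded protein in the endoplasmic reticulum (ER), double-stranded RNA or mitochondrial trouble phosphorylate the initiation factor eIF2, which lowers general translation while raising translation of ATF4 mRNA. ATF4 protein then induces genes of amino acid synthesis and import, among them ASNS and the serine pathway, and further factors such as DDIT3, which encodes CHOP. FGF19 is a hormone of the ileum that is induced by bile acids and restrains bile acid synthesis in the liver, and ATF4 has also been reported to induce it. Because ATF4 is controlled largely by translation, its mRNA level is only one face of the response, and no protein was measured here.

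The element that ATF4 and C/EBP proteins bind together, called CARE, was searched as TGATGNAA on both strands in RefSeq promoter windows (GRCh38.p14, 250 bases before to 50 after each annotated start). Windows were given for 8 of the 10 genes: PHGDH, MTHFD2, STC2, ASNS, PSAT1, DDIT3, CEBPB and ATF4. Of these 8, only ASNS held the letters, as did 4.46% of all 27305 genes with a window. The motif occurred in 8 of 24 other ATF4 target genes and 7 of 10 aminoacyl-tRNA synthetase genes with a window. Shown here are the ASNS site, for the classic target among the 10, and the sites of the genes of those lists that were called changed, picked after their values were seen, 3 that rose and 2 that fell. Capitals mark the motif, read along the gene's own strand from 5′ to 3′.
ASNS: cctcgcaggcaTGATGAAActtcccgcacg
SLC1A5: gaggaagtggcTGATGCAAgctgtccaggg
JDP2: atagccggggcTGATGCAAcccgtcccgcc
AARS1: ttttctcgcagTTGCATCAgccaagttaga
SLC3A2: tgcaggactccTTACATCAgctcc
MARS1: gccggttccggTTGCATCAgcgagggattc
The ASNS stretch lies at chr7:97872458-97872487 on the minus strand, with the motif beginning at position -68 from the start site. In AARS1, SLC3A2 and MARS1 the motif is on the strand opposite to the gene. Of 15 tested genes of these lists with such a match, ASNS among them, 3 rose (SLC1A5, JDP2 and AARS1), 2 fell (SLC3A2 and MARS1) and 10 were not called. The 33.3% called among them is near the 32.7% called among all tested genes. A match is a description of the letters and not a measured binding site.

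Gene reads per library ran from 6808771 to 11071456. RNF6 itself fell from 52.5 ± 6.51 to 16.5 ± 0.316 CPM (normalised read counts, scaled to the gene reads of a library; SD, n = 3), with no overlap between the groups (edgeR adjusted p = 2.12e-06). Control replicate 1 stood at one end of the second principal component, which carried 18.4% of the variance. Markers of colon epithelium went partly against the label: EPCAM, CDH1, KRT8, KRT18, KRT19 and CDX2 were present, while VIL1, LGALS4, CDH17 and GPA33 were below 1 CPM in every library and CDX1 had 0 reads. The 12 epithelial markers summed to 4352 to 5653 CPM in control and 2446 to 2829 CPM in RNF6 siRNA libraries, and KRT8, KRT18, KRT19 and KRT20 were called lower. The other 3 tested markers were not called: EPCAM was at 218 and 227 CPM, CDH1 at 106 and 114 CPM and CDX2 at 15.9 and 16.1 CPM. Of 8 fibroblast markers 6 stayed below 1 CPM, and the list summed to 50.4 to 65.6 and 70.3 to 85.1 CPM, nearly all COL1A1. Immune, endothelial and hepatocyte lists summed to at most 8.84 CPM in any library, the defining PECAM1 was at 0, and PTPRC averaged 0.200 CPM with control and 0.201 CPM with RNF6 siRNA. How the keratin difference bears on the 10 genes was not tested.

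A common rise of the 10 genes was not seen. FGF19 and PHGDH rose, CEBPB fell, and 7 did not pass the test, at an adjusted p below 0.05 from edgeR's quasi-likelihood test over all genes. The 3 called of 10 compare with 32.7% of all tested genes called, the 2 higher with 16.6% called higher and the 1 lower with 16.1% called lower. Groups of libraries did not overlap for the same 3 genes, against 44.2% of all tested genes (22.4% higher and 21.8% lower). The median log2 fold change was 0.07 over the 10 genes and 0.0065 over all genes. The share of called genes among the 10 was near the background share. The CEBPB call was the one that other settings ended, as described with that gene.

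**Figure D1:**
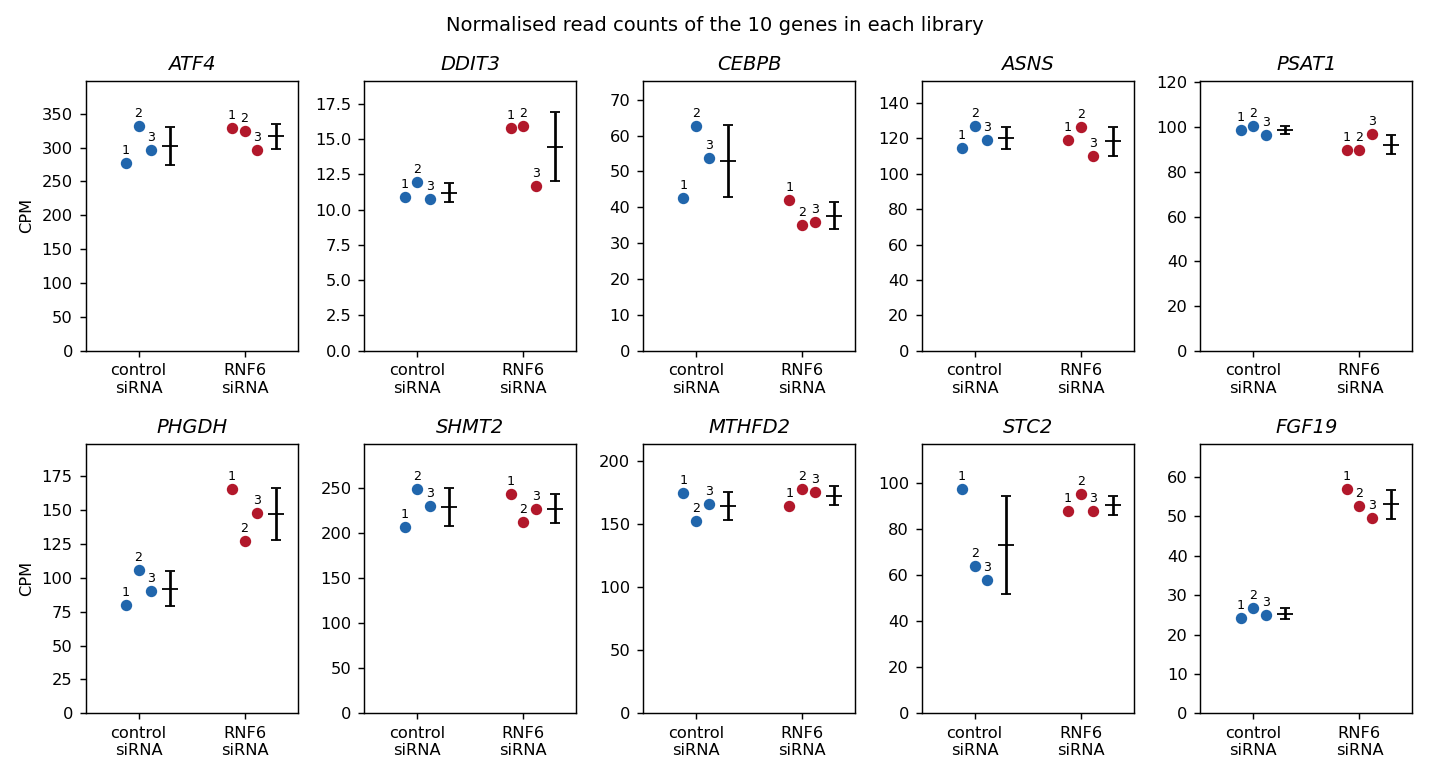
CPM (y axis, from 0) of each of the 10 genes in the 3 control siRNA libraries (blue) and the 3 RNF6 siRNA libraries (red), numbered by replicate, with the mean and SD as a black bar. FGF19 and PHGDH separate upward and CEBPB narrowly downward, while ATF4, ASNS, PSAT1, SHMT2 and MTHFD2 overlap.

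Of the 3 regulators among the 10 genes, ATF4 and DDIT3 were not called and CEBPB fell. ATF4 was at 277, 332 and 297 CPM with control siRNA (replicates 1, 2 and 3, in that order here and below) and at 329, 325 and 296 CPM with RNF6 siRNA. The highest library was a control and the groups overlapped throughout. Its fold change was 1.05, and the 95% interval ran from 0.904 to 1.22 (log2 fold change 0.07, SE 0.099, edgeR adjusted p = 0.634). The annotation names 4 ATF4 pseudogenes and 4 of PSAT1, so the absolute levels of these genes are uncertain.

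DDIT3, the CHOP gene that is induced when the response persists, was low, at 10.9, 11.98 and 10.8 CPM with control siRNA and 15.8, 15.9 and 11.7 CPM with RNF6 siRNA. RNF6 siRNA replicates 1 and 2 stood above every control, while replicate 3 fell inside the control range. The fold change of 1.28 was not called after adjustment (log2 fold change 0.36, SE 0.156, edgeR adjusted p = 0.0962), although its 95% interval, which is not adjusted for the number of genes, ran from 1.01 to 1.62. Without RNF6 siRNA replicate 3 the gene was called (adjusted p = 0.0440, over a range of 0.0440 to 0.268 across alternatives). Exons of other genes cover 39.6% of the DDIT3 model, and reads there may have been set aside as ambiguous.

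CEBPB encodes a C/EBP factor that pairs with ATF4 and is also driven by cytokine signalling. Its levels were 42.5, 62.7 and 53.8 CPM with control siRNA and 42.1, 35.1 and 35.8 CPM with RNF6 siRNA. All RNF6 siRNA libraries were below all controls, but control replicate 1 and RNF6 siRNA replicate 1 were almost equal. The level fell 1.41-fold (log2 fold change −0.49, SE 0.142, edgeR adjusted p = 0.0182). Leaving out control replicate 2 (adjusted p = 0.0525) or 3 (0.0632), or RNF6 siRNA replicate 2 (0.0738) or 3 (0.0863), removed the call, and across alternatives the adjusted p ran from 1.52e-04 to 0.0886.

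ASNS, asparagine synthetase, is the gene most often used as a readout of ATF4 in amino acid shortage. It had 114, 127 and 119 CPM with control siRNA and 119, 126 and 110 CPM with RNF6 siRNA. These ranges lay almost on top of each other, with a fold change interval of 0.848 to 1.14 (log2 fold change −0.02, SE 0.099, edgeR adjusted p = 0.877). Exons of other genes cover 44.6% of the ASNS model, and the annotation names 4 ASNS pseudogenes, so its absolute level is uncertain.

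Serine is made from the glycolytic intermediate 3-phosphoglycerate by PHGDH, PSAT1 and PSPH in turn. PHGDH, the first enzyme of the branch, had 79.9, 105 and 90.3 CPM with control siRNA and 166, 127 and 148 CPM with RNF6 siRNA. Every RNF6 siRNA library exceeded every control, with replicate 1 the highest. PHGDH rose 1.60-fold (log2 fold change 0.68, SE 0.127, edgeR adjusted p = 0.00147).

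PSAT1, the aminotransferase of the next step, did not follow. It had 98.8, 100.5 and 96.6 CPM with control siRNA and 89.9, 89.6 and 97.0 CPM with RNF6 siRNA, so RNF6 siRNA replicate 3 lay among the controls and the other two just below them (log2 fold change −0.10, SE 0.096, edgeR adjusted p = 0.471). The fold change interval of 0.81 to 1.08 does not reach the rise seen for PHGDH. PSPH, the phosphatase of the last step, was at 33.0 ± 2.02 and 30.7 ± 3.05 CPM (SD, n = 3; edgeR adjusted p = 0.547).

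The ratio of PHGDH to PSAT1 reads within a library does not depend on how libraries are scaled. It was 0.809, 1.05 and 0.935 with control siRNA and 1.84, 1.42 and 1.52 with RNF6 siRNA. The balance between these neighbouring steps thus differed in every RNF6 siRNA library, a ratio computed after the values of both genes were seen and given with no test.

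SHMT2 and MTHFD2 are mitochondrial enzymes that take the carbon of serine into the folate one-carbon pool. SHMT2, which splits serine into glycine and a one-carbon unit, had 207, 249 and 231 CPM with control siRNA and 244, 212 and 226 CPM with RNF6 siRNA. Control libraries were both the lowest and the highest of the 6 (log2 fold change −0.01, SE 0.101, edgeR adjusted p = 0.954).

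MTHFD2, the dehydrogenase and cyclohydrolase that follows SHMT2, had 174, 152 and 165.5 CPM with control siRNA and 164, 178 and 175 CPM with RNF6 siRNA. The groups overlapped, and the fold change interval ran from 0.912 to 1.21 (log2 fold change 0.07, SE 0.095, edgeR adjusted p = 0.593). Unlike PHGDH to PSAT1, the ratio of SHMT2 to MTHFD2 reads overlapped between the groups. It was 1.187, 1.64 and 1.394 with control siRNA and 1.485, 1.193 and 1.292 with RNF6 siRNA. The annotation names 7 MTHFD2 pseudogenes, and exons of other genes cover 33.2% of the gene, so its absolute level is uncertain.

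**Figure D2:**
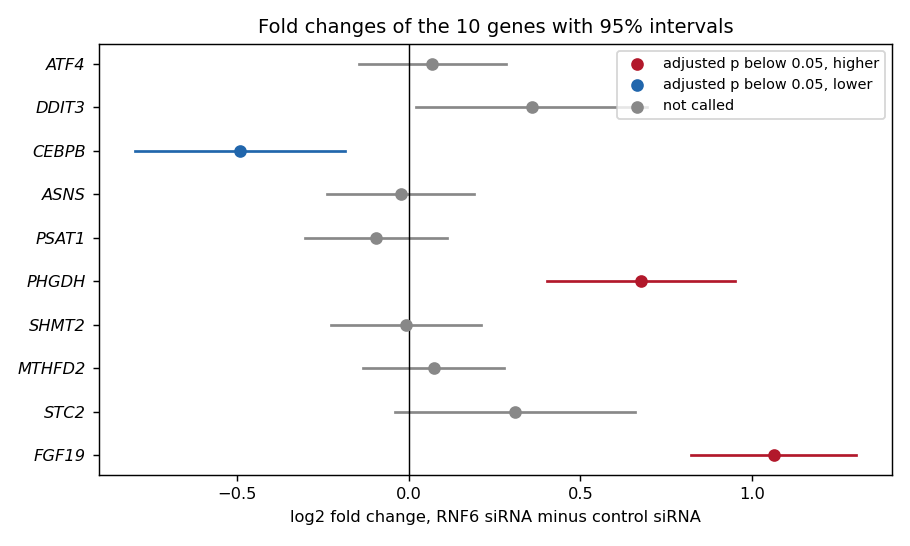
Log2 fold change, RNF6 siRNA minus control siRNA, of each of the 10 genes (points) with its 95% interval from the edgeR fit (lines); red marks called higher, blue called lower and grey not called. ATF4, ASNS, PSAT1, SHMT2 and MTHFD2 lie close to 0, and FGF19 lies furthest to the right, at 1.06.

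STC2 encodes stanniocalcin 2, a secreted glycoprotein that binds and inhibits the pappalysin proteases and is induced by ATF4. It had 97.5, 63.9 and 57.8 CPM with control siRNA and 87.8, 95.05 and 87.9 CPM with RNF6 siRNA. Control replicate 1 was the highest of all 6, and the other controls were the lowest. The difference was not called (log2 fold change 0.31, SE 0.162, edgeR adjusted p = 0.163).

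The STC2 result turned on that library. Without control replicate 1 the log2 fold change was 0.56 and the gene was called (edgeR adjusted p = 2.92e-04, over a range of 2.92e-04 to 0.567 across alternatives). The relative STC1 was at 1.18 CPM with control siRNA and 1.35 CPM with RNF6 siRNA and was not called; it was picked after its values were seen.

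**Figure D3:**
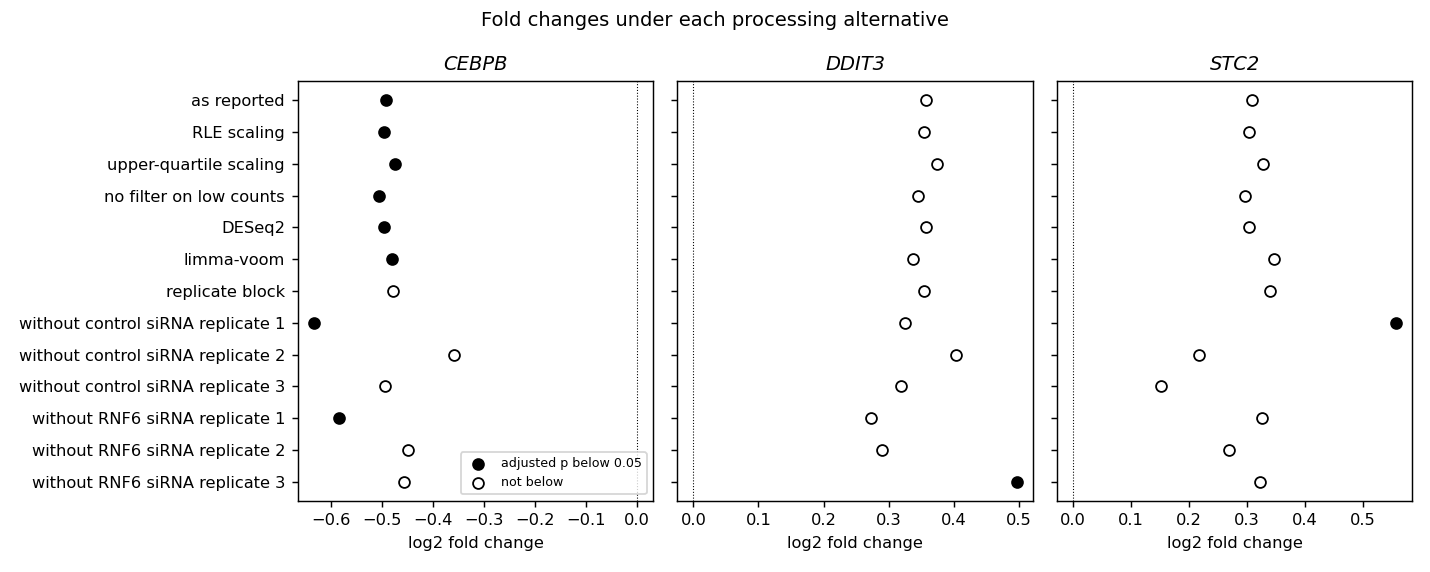
Log2 fold change (x axes) of CEBPB, DDIT3 and STC2 as reported and under each of the 12 processing alternatives (y axis); filled points have an adjusted p below 0.05 and open points do not. CEBPB is negative throughout but loses its call in 5 settings, DDIT3 is called in 1, and STC2 is called only without control replicate 1.

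FGF19 changed most among the 10 genes. It had 24.2, 26.7 and 25.1 CPM with control siRNA and 57.0, 52.5 and 49.5 CPM with RNF6 siRNA, from 176 to 620 reads per library. The lowest RNF6 siRNA library was well above the highest control. FGF19 rose 2.09-fold, with a 95% interval of 1.77 to 2.47 (log2 fold change 1.06, SE 0.112, edgeR adjusted p = 2.25e-05), and it was called under all 12 alternatives, with log2 fold changes from 1.00 to 1.11. Relative to ATF4 reads of the same library, FGF19 reads were 0.0874, 0.0806 and 0.0845 in control and 0.173, 0.162 and 0.167 in RNF6 siRNA libraries. This ratio follows from the fold changes of both genes, is no separate result and is given with no test.

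Receptors for FGF19 were present, but its coreceptor and bile acid sensor were at most marginal. FGFR4, the receptor that FGF19 prefers, had 63.8, 85.8 and 85.3 CPM with control siRNA and 106, 88.0 and 93.4 CPM with RNF6 siRNA. All RNF6 siRNA libraries were above the controls, by a narrow margin for replicate 2, and the gene was not called (log2 fold change 0.29, edgeR adjusted p = 0.0998), except without control replicate 2 (adjusted p = 0.0476; all alternatives lay between 0.0476 and 0.285). FGFR3 rose 2.48-fold, from 41.1 ± 4.34 to 102.1 ± 6.29 CPM (SD, n = 3; edgeR adjusted p = 4.89e-06).

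KLB, the beta-Klotho coreceptor that FGF19 needs for signalling through FGFR4, reached at most 0.448 CPM and was too low to test. NR1H4, the gene of the bile acid receptor FXR, reached at most 0.184 CPM, and its target NR0B2 had 0 reads; both were picked after their values were seen. FABP6, the ileal bile acid binding protein gene and another FXR target, fell 3.95-fold, with means of 4.52 and 1.11 CPM (log2 fold change −1.98, SE 0.269, edgeR adjusted p = 1.51e-04). Of 18 genes of this axis 8 were tested, FGFR3 rose, FABP6 fell and 6 were not called, 25% called against 32.7% of all tested genes. Without control replicate 2, FGFR4 joined for 2 higher, and without control replicate 3 the number lower was 2.

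**Figure D4:**
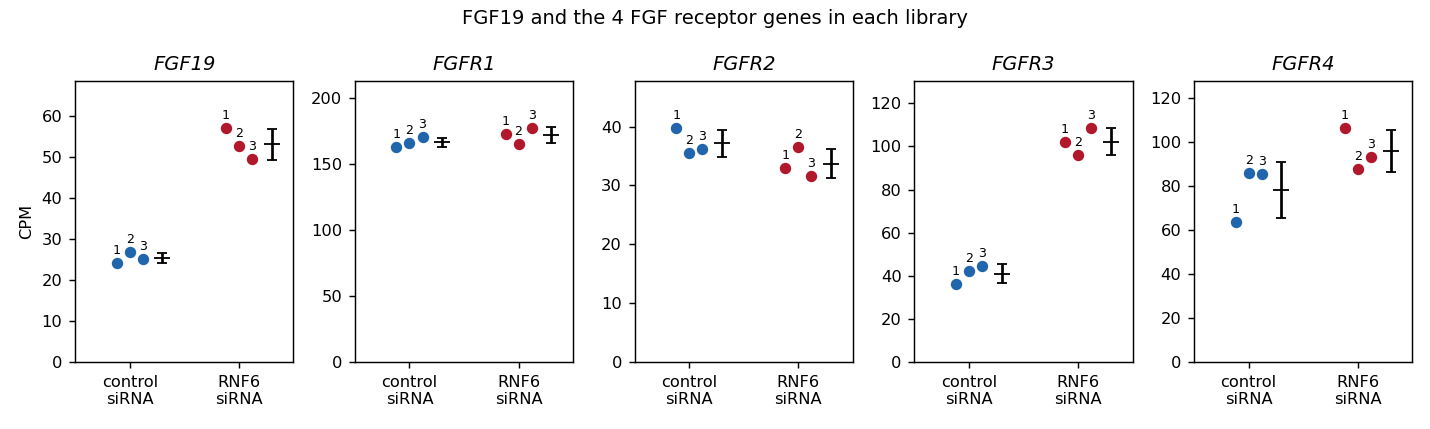
CPM (y axis, from 0) of FGF19 and of FGFR1, FGFR2, FGFR3 and FGFR4 in control siRNA (blue) and RNF6 siRNA (red) libraries, numbered by replicate, with the mean and SD as a black bar. FGF19 and FGFR3 separate widely, and FGFR1 and FGFR2, added after their values were seen, overlap.

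Levels between genes were compared per kilobase of the transcript with the longest coding sequence, over control libraries. Exon overlap with other genes and pseudogenes were not corrected for, so the places of ATF4, ASNS, PSAT1, MTHFD2 and DDIT3 are uncertain. ATF4 was highest, at 149.5 ± 13.7 CPM per kb (SD, n = 3), followed by SHMT2 (90.3), ASNS (51.0) and PSAT1 (45.1), each above the next without overlap of libraries. MTHFD2 (36.8), PHGDH (35.6) and CEBPB (27.1) followed, and neighbours among these 3 overlapped. STC2 (13.7), DDIT3 (10.5) and FGF19 (10.4) were lowest, also with overlap between neighbours. In RNF6 siRNA libraries PHGDH averaged 56.9 and FGF19 21.7 CPM per kb.

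The tested genes whose profiles over the 6 libraries lay closest to that of FGF19, by root mean square difference of centred log2 CPM among 11736 genes averaging 5 CPM or more, were PIR (0.0246), MRFAP1 (0.0347) and HDAC1 (0.0545). For ATF4 they were PEBP1 (0.0196), CTD-2554C21.1 (0.0213) and RPL7P9 (0.0231), the last named as a ribosomal protein pseudogene.

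Upstream of ATF4, genes of eIF2 and its control were mostly lower. Of 18 tested genes 10 fell, 1 rose and 7 were not called, 61.1% called against 32.7% of all genes, with a median log2 fold change of −0.33. EIF2AK4, the kinase GCN2 that senses uncharged tRNA, fell from 90.0 ± 2.96 to 60.9 ± 2.07 CPM (SD, n = 3; log2 fold change −0.56, edgeR adjusted p = 9.07e-04), and its activator GCN1L1 fell 1.36-fold. EIF2AK3, the ER kinase PERK, fell from 30.9 ± 4.57 to 22.6 ± 2.21 CPM (edgeR adjusted p = 0.0242). The other eIF2 kinase genes of the list, picked after their values were seen, were not called. EIF2AK1 had a log2 fold change of −0.14 (edgeR adjusted p = 0.268) and EIF2AK2 of 0.13 (0.503). Also not called, and picked in the same way, were the eIF2 subunit genes EIF2S1, EIF2S2 and EIF2S3 and the phosphatase subunit gene PPP1R15A.

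All 5 genes of eIF2B, the exchange factor that phosphorylated eIF2 blocks, were called lower, a count that fell to 2 (EIF2B3 and EIF2B5) with the replicate block, without control replicate 2 or 3, or without RNF6 siRNA replicate 2 or 3. It was 3 with upper-quartile scaling. EIF2B3 fell most, 1.93-fold, from 26.0 ± 2.71 to 13.4 ± 1.19 CPM (SD, n = 3; edgeR adjusted p = 1.92e-04), and EIF2B5 fell 1.49-fold. NCK1, an adaptor reported to bind eIF2, was the gene that rose (1.38-fold, edgeR adjusted p = 0.0280). EIF2AK3 lost its call without control replicate 3, at an edgeR adjusted p of 0.0874, and when RNF6 siRNA replicate 1 (0.0659) or 2 (0.0780) was left out, with adjusted p from 0.00365 to 0.0874 across alternatives. NCK1 lost it, by the same adjusted p, when control replicate 2 (0.124) or 3 (0.0765) or RNF6 siRNA replicate 2 (0.0770) or 3 (0.0860) was left out, with values from 0.00310 to 0.124. The number lower was 5 without control replicate 3, it was 6 when RNF6 siRNA replicate 2 or 3 was left out, and the number higher was 2 without control replicate 1.

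More of the other reported targets of ATF4 and CHOP rose than fell. Of 33 listed genes 28 were tested, 12 rose, 5 fell and 11 were not called, with a median log2 fold change of 0.12. The 60.7% called compare with 32.7% called among all tested genes, 16.6% higher and 16.1% lower. PCK2, the mitochondrial enzyme that feeds carbon from oxaloacetate toward serine, rose 2.27-fold, from 13.8 ± 1.16 to 31.1 ± 4.42 CPM (SD, n = 3; edgeR adjusted p = 5.57e-05). TRIB3, a pseudokinase that restrains ATF4 and CHOP, rose 1.63-fold, from 18.7 ± 2.18 to 30.4 ± 3.75 CPM (edgeR adjusted p = 0.00189).

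DDIT4, an inhibitor of mTORC1 that also responds to hypoxia, had 64.1, 36.6 and 29.4 CPM with control siRNA and 120, 96.8 and 98.2 CPM with RNF6 siRNA. Control replicate 1 was again the highest control, as for STC2, yet it stayed below every RNF6 siRNA library (edgeR adjusted p = 7.22e-04). DDIT4 lost its call when control replicate 2 was left out (edgeR adjusted p = 0.0519, with values from 4.16e-19 to 0.0519 across alternatives). Reads under exons of other genes, which cover 41.2% of the DDIT4 model, may have been set aside as ambiguous.

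Among genes of amino acid import, both chains of one transporter fell. SLC7A5, the light chain LAT1 that carries large neutral amino acids, fell 1.93-fold, from 428.5 ± 47.0 to 222 ± 21.6 CPM (SD, n = 3; edgeR adjusted p = 5.10e-05). SLC3A2, its heavy chain, whose promoter window holds the CARE letters shown above, fell 1.62-fold, from 237 ± 31.2 to 146 ± 13.6 CPM (edgeR adjusted p = 6.08e-04). Other importers of the list went both ways, and those given here were named after their values were seen. SLC7A11, the cystine carrier, rose 1.47-fold (edgeR adjusted p = 0.0235) and SLC1A5, a glutamine carrier, rose 1.29-fold (0.0167). SLC6A9 fell (log2 fold change −0.59, edgeR adjusted p = 0.0499). SLC7A1, SLC38A2 and SLC43A1 were not called, and SLC7A3 was too low to test. SLC7A11 and SLC1A5 both lost the call without replicate 3 of either group. SLC7A11 lost it also without RNF6 siRNA replicate 2 and SLC1A5 also without RNF6 siRNA replicate 1. Across alternatives the adjusted p reached 0.115 for SLC7A11 and 0.0892 for SLC1A5. The number of targets lower was 3 without control replicate 3, 2 without RNF6 siRNA replicate 2 and 3 without RNF6 siRNA replicate 3.

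Aminoacyl-tRNA synthetases, which load amino acids onto tRNA and include many ATF4 targets, gave 1 higher, 4 lower and 7 not called of 12, 41.7% called against 32.7% of all tested genes. AARS rose 1.38-fold, while WARS (1.71-fold), MARS (1.39-fold) and YARS (1.29-fold) fell. The other gene that fell was EPRS (1.26-fold, edgeR adjusted p = 0.0176), named after its values were seen. YARS and EPRS both lost their calls, leaving 2 genes lower, without control replicate 3 (edgeR adjusted p of 0.0506 for YARS and 0.0552 for EPRS) and without RNF6 siRNA replicate 3 (0.0510 and 0.0554). EPRS lost it also without RNF6 siRNA replicate 1 (0.0531). Across alternatives the adjusted p of YARS ran from 0.00171 to 0.0741.

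**Figure D5:**
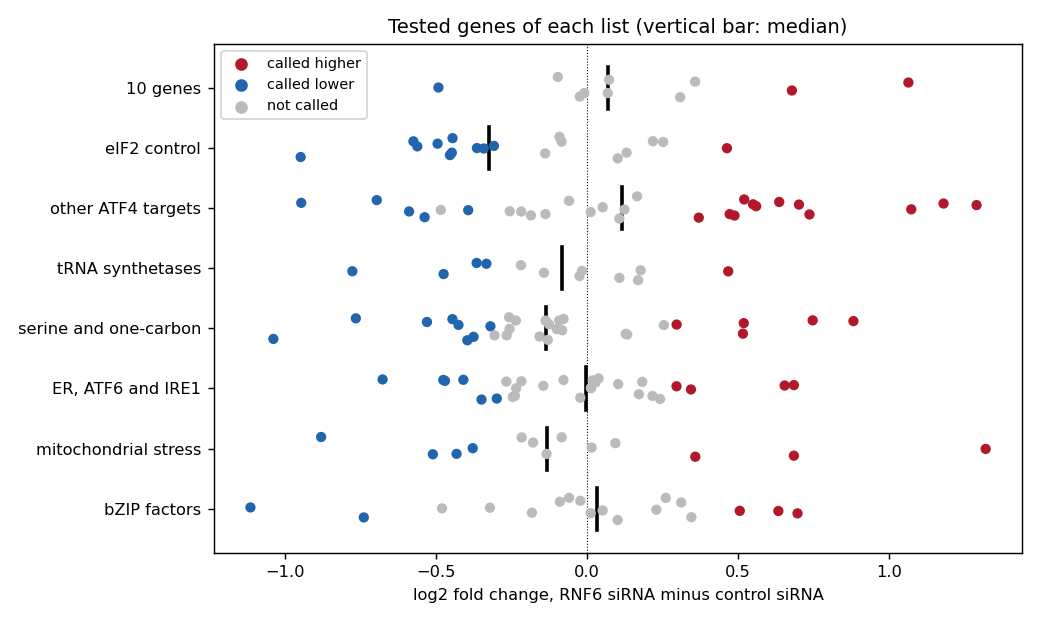
Log2 fold change (x axis) of each tested gene in the 10 genes and in 7 lists of related genes (y axis); red points were called higher, blue lower and grey not called, and the black bar is the list's median. The eIF2 control genes lie mostly left of 0 (median −0.33), and the other ATF4 targets reach far to both sides of 0 (median 0.12).

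Other genes of serine, glycine and folate metabolism also went both ways. Of 33 listed genes 29 were tested, 5 rose, 8 fell and 16 were not called, with a median log2 fold change of −0.14. The 44.8% called compare with 32.7% called among all tested genes, 16.6% higher and 16.1% lower. MTFMT, which formylates the mitochondrial initiator tRNA with a one-carbon unit, fell 2.05-fold, with means of 27.9 and 13.6 CPM (log2 fold change −1.04, SE 0.123, edgeR adjusted p = 5.36e-05), and SDSL, named as a serine dehydratase relative, fell 1.70-fold. Within this list 3 genes were higher without control replicate 2 or 3 or without RNF6 siRNA replicate 2 or 3, and 5 were lower without RNF6 siRNA replicate 3.

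ER chaperones and genes of the ATF6 and IRE1 arms gave 4 higher, 6 lower and 18 not called of 28, with a median log2 fold change of −0.0050. The 35.7% called is near the 32.7% called among all tested genes. HSPA5, the chaperone BiP that marks ER stress, was at 1157 and 1167 CPM (log2 fold change 0.01, SE 0.092, edgeR adjusted p = 0.934), and XBP1, the factor spliced by IRE1, was at 91.0 and 82.4 CPM (edgeR adjusted p = 0.289). CALR (1.61-fold) and ATF6B (1.57-fold) rose, while SEC24D (1.60-fold) and DERL2 (1.39-fold) fell. DERL2 lost its call when RNF6 siRNA replicate 3 was left out (edgeR adjusted p = 0.0571, with values from 0.00186 to 0.0571). The counts were 2 higher and 3 lower without control replicate 3, 2 higher and 2 lower without RNF6 siRNA replicate 2, and 1 lower without RNF6 siRNA replicate 3.

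Mitochondrial chaperones and proteases, which mark the mitochondrial stress that can also feed ATF4, gave 3 higher, 4 lower and 6 not called of 13, 53.8% called against 32.7% of all tested genes. LONP1, the matrix protease, rose 2.50-fold, with means of 73.6 and 183 CPM (log2 fold change 1.32, SE 0.103, edgeR adjusted p = 3.08e-06), and the chaperonin gene HSPD1 rose 1.61-fold. Its partner HSPE1 fell 1.42-fold and the protease gene CLPP fell 1.84-fold. HSPD1 and HSPE1 thus differed in direction, but the annotation names 17 HSPD1 and 26 HSPE1 pseudogenes. Exons of other genes also cover 23.9% of the HSPE1 model, so the levels of this pair are uncertain. HSPE1 lost its call when RNF6 siRNA replicate 2 was left out (edgeR adjusted p = 0.0543, with values from 0.00113 to 0.0643). The number lower was 2 without control replicate 3 and 1 when RNF6 siRNA replicate 2 was left out.

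Among 18 tested bZIP factors that pair or compete with ATF4, 3 rose and 2 fell, 27.8% called against 32.7% of all tested genes. ATF3, a stress-induced repressor downstream of ATF4, was at 73.4 and 74.1 CPM (log2 fold change 0.01, SE 0.108, edgeR adjusted p = 0.947), and CEBPG, the partner of ATF4 at CARE sites, was at 63.8 and 61.4 CPM (edgeR adjusted p = 0.719); both were picked after their values were seen. FOSL2 (1.62-fold), JUND (1.55-fold) and ATF7 (1.42-fold) rose, and JUNB (1.67-fold) fell. The other gene that fell, picked after its values were seen, was BATF3, at 2.45 and 1.12 CPM. Because exons of other genes cover 43.85% of the ATF7 model, the level of ATF7 is uncertain. Without control replicate 2 the number lower was 4, and without control replicate 3 it was 1.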

How the data were processed

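Total RNA from HT29 cells was made into libraries with an Illumina TruSeq kit, per the labels' protocols. The deposited files, 1 for each of 6 libraries, hold unnormalised whole read counts by gene symbol. Alignment used TopHat2 2.0.11 on hg19 (GRCh37) and counting used HTSeq, per the submitters' processing notes. The strand setting was not given in the sources used here, so reads of overlapping and antisense genes cannot be told apart. Rows for reads without a gene (27.3% to 29.4% of listed reads) were left out.

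Groups came from the sample titles. Counts were filtered by filterByExpr (minimum count 10, minimum total 15), scaled by TMM and fitted with the group as the only term (edgeR 4.0.16, glmQLFit and glmQLFTest, two-sided, prior count 0.125, R 4.3.3), with Benjamini-Hochberg adjustment over 14685 genes and calls below 0.05. Standard errors equal the absolute log2 fold change over the root of the F statistic. The script was tested on simulated data. CPM values are scaled to TMM library sizes. Gene depth, 6808771 to 11071456 reads, limits the precision of low genes. Alternatives were RLE and upper-quartile scaling, no filter, DESeq2 1.42.0, limma-voom (limma 3.58.1), a replicate block and leaving out each library.

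The 10 genes and all lists were chosen with earlier results of these data known. Named genes are the 10; RNF6, TRIB3, EIF2AK3, EIF2AK4, PSPH, HSPA5, XBP1, FGFR4 and KLB; and up to 4 called members per list with the smallest adjusted p, covering both directions; and, for ATF4 and for the member that changed most, the 3 genes of closest profile. Some genes chosen by this rule are not reported here. Genes named outside this rule are epithelial and other cell type markers or are said to be picked after their values were seen. Older symbols were matched through reference tables (GCN1 as GCN1L1, AARS1 as AARS and so on). GENCODE 29 (GRCh38) gave transcript lengths and exon overlap only. Libraries of a group differed by more than sampling noise from the same library would give (chi-square per degree of freedom 3.71 to 14.6). These values cannot tell whether libraries came from separate cultures or from the same RNA.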

Additional observations from a re-analysis of the deposited data

How the results depend on the processing

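Of 48 tested genes chosen by the naming rule, 37 were called, and 30 of these kept direction and call under all 12 alternatives, FGF19, PHGDH and TRIB3 among them. Without each library in turn, 1514 to 2910 genes were higher (2442 with all 6) and 1478 to 2967 lower (2364). Of the 10 genes, 2 to 3 were higher and 0 to 1 lower. The number of other ATF4 targets higher, 12 as reported, was 8 to 12 under every alternative. Leaving out a library also gave 0 to 2 higher and 5 to 9 lower for eIF2 control, 2 to 5 lower for other ATF4 targets, 2 to 4 lower for tRNA synthetases, 3 to 6 higher and 5 to 10 lower for serine and one-carbon genes, 2 to 5 higher and 1 to 8 lower for ER genes, 1 to 4 lower for mitochondrial stress, 1 to 4 lower for bZIP factors, and 1 to 2 in each direction for the FGF19 axis.

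Replicate numbers occur in both groups. Deviations of same-numbered libraries from their group means correlated at −0.42, −0.217 and 0.049 for replicates 1, 2 and 3. No library of a group correlated best with its own number. With 3 libraries a group, these correlations cannot decide whether a shared number marks a shared batch. With the replicate block, 1421 genes were higher and 1321 lower, and of the 10 genes 0 were lower (CEBPB adjusted p = 0.0886) while FGF19 and PHGDH stayed called. The block gave 0 higher and 4 lower for eIF2 control, 2 lower for other ATF4 targets, 2 lower for tRNA synthetases, 3 higher and 2 lower for serine and one-carbon genes, 2 higher and 2 lower for ER genes, 1 lower for mitochondrial stress and 1 lower for bZIP factors. DESeq2 called 1 bZIP factor lower. Without the filter on low counts 4 bZIP factors were lower, and 1 gene of the stanniocalcin list was higher.

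Signs of values near 0 changed. SHMT2 was at 0.008 with upper-quartile scaling and between −0.087 and 0.052 when libraries were left out. ASNS ran from −0.073 to 0.012 and 0.024, and HSPA5 from −0.019 to 0.048, when libraries were left out, none of them called; the cause was not tested. Depth limits KLB, NR1H4 and the other genes below 1 CPM, for which a difference was not detectable here.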
